A study of Mus musculus with 27 samples.

Results

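The response of mouse macrophages to 2 h of interleukin-4 (IL-4) was described gene by gene, by setting 3 samples stimulated with IL-4 for 2 h against 3 untreated samples. Genes were included where at least 10 normalised read counts were found in at least 3 of these 6 samples, which held for 11879 of the 45070 genes listed. The cells were wild type bone marrow-derived macrophages (BMDMs), primary macrophages grown from the marrow of male C57/BL6 mice aged 6 to 8 weeks. Every sample was first given DMSO alone for 1 h, since other arms of the study dissolved their inhibitors in it, and the stimulated samples then received 10 ng/ml IL-4 for 2 h. They belong to a series of 27 samples with 3 samples per group. Its other groups are shorter and longer IL-4 (0.5, 1 and 4 h) and lipopolysaccharide (LPS), a bacterial cell wall component, given at 10 ng/ml over the same 4 times. The assay was sequencing of chromatin-associated RNA, the fraction of RNA still bound to chromatin, which is rich in transcripts being made and in unspliced introns. The comparison asks which genes IL-4 switched on or off by 2 h, with IL-4 at 1 h and 4 h and LPS at 2 h as further references.

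IL-4 binds a receptor whose chains are IL-4Rα and the common gamma chain, or IL-4Rα and IL-13Rα1, and the bound Janus kinases (JAKs) then phosphorylate the transcription factor STAT6. STAT6 dimers bind DNA where the letters TTC and GAA face each other across a short spacer, and in macrophages they set off the programme called alternative activation, with the mannose receptor, arginase 1 and a set of transcription factors as its best known products. The same programme is known for its feedback inhibitors of the SOCS family and for its opposition to the inflammatory programme of LPS.

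The values are read counts per gene that the authors scaled on invariant genes and rounded, so they are given here as normalised counts. Their sum lay between 2488987 and 2601295 in the 6 samples, which is not a sequencing depth, and the reads behind each library are not given by these values. Differences are log2 values on the scale log2(normalised count + 1), IL-4 2 h minus untreated, and understate the change of genes with low values. They were tested with limma, a moderated linear model fitted to the 15 untreated and IL-4 samples, with p-values adjusted over all 11879 genes (Benjamini-Hochberg). A gene is called where this adjusted p is under 0.05. Nothing in the sources used here says that the replicates came from separate cultures, so the p-values measure the spread between these samples. Replicate 1 stood apart from replicates 2 and 3 in both groups: the SD of the log2 ratio over 4614 genes was 0.17 between untreated replicates 2 and 3 and 0.16 between the same replicates of IL-4 2 h, against 0.42 to 0.45 between replicate 1 and either of them. The main counts of calls are therefore given also with these averaged into 1 sample per group.

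At 2 h, 3687 genes were called, which is 31% of those tested. Of these, 1932 (16.3%) were higher after IL-4 and 1755 (14.8%) lower. A change of at least 2-fold was called for 684 genes that were higher (5.76%) and 691 that were lower (5.82%). The larger changes were mostly rises: 74 genes were called at least 8-fold higher and 12 at least 8-fold lower, or 75 and 8 with replicates 2 and 3 averaged. All 3 IL-4 samples lay above all 3 untreated samples for 2707 genes (22.8%) and below them for 2431 (20.5%). The balance between rises and falls was not stable. Averaging replicates 2 and 3 left 1179 genes called higher and 974 lower, without replicate 2 the counts were 1032 and 938 and without replicate 3 1098 and 838. Falls outnumbered rises without replicate 1 (2039 and 2597), with the replicate block (2397 and 2538), with median-of-ratios scaling (1743 and 1938) and with equal totals (1797 and 1870). The median difference of all genes was 0.005. The filter admitted 162 genes through the IL-4 samples alone, of which 130 were called higher, and 163 through the untreated samples alone, of which 138 were called lower. Such genes had to differ, so their calls and p-values are no evidence of their own. All of the 12 largest rises named below but Flt1 are among them. So are Batf3, Egr2, Klf4, Mgl2, Il1rl2, Tnk2 and Ppan, and of the falls Clec4n, Ccl3, Fos, Dusp1 and Ms4a4d. Of the tested genes 49.2% overlap another annotated gene, and Smart-seq2 libraries do not mark strand, so reads of overlapping genes cannot be told apart. Overlaps are named below for some of the genes concerned and not for all.

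**Figure D1:**
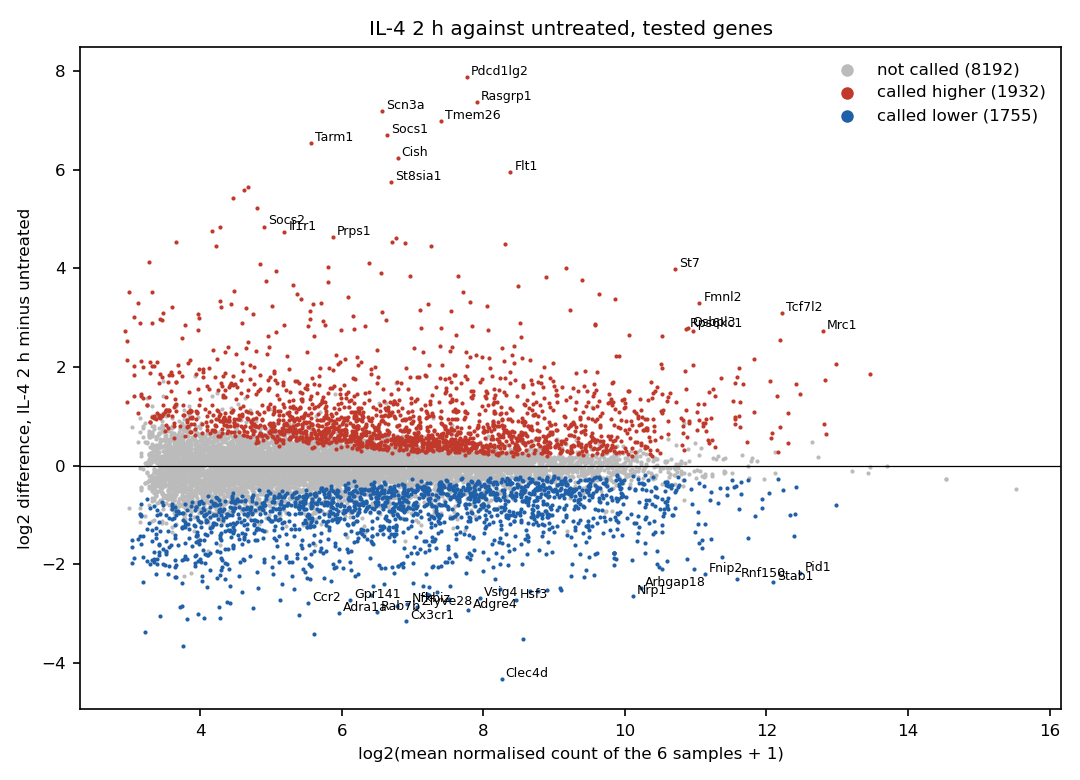
Each point is 1 of the 11879 tested genes, with the log2 of its mean normalised count over the 6 samples on the x axis and its log2 difference, IL-4 2 h minus untreated, on the y axis. Genes called higher (1932, red) reach 7.88 at Pdcd1lg2, while genes called lower (1755, blue) reach no further than -4.32, at Clec4d.

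The largest rises were of genes that were close to silent without IL-4. The rule took the 12 protein-coding genes with the largest difference among those called, with a mean of at least 50 in the higher group and no overlap between the groups. Pdcd1lg2, which encodes PD-L2, a ligand of the inhibitory T cell receptor PD-1, had 1, 0 and 2 normalised counts in untreated replicates 1, 2 and 3 and 324, 479 and 497 after IL-4. Rasgrp1 (chr2:117279983-117342877), an exchange factor that activates Ras, went from 2, 1 and 3 to 429, 489 and 507. Tmem26 (chr10:68723746-68782654), a transmembrane protein of little known function, went from 5, 0 and 2 to 326, 320 and 353. No sample of one group came near the other for these 3 genes, whose log2 differences were 7.88 ± 0.32 (SE), 7.36 ± 0.19 and 6.99 ± 0.42, with adjusted p of 5.85e-10, 2.2e-11 and 1.9e-08. Against a floor of 3 normalised counts per sample, Pdcd1lg2 was at least 144-fold and Rasgrp1 at least 158-fold higher. Tmem26, at a mean under that floor, was higher by 143-fold as a ratio of means, which rests on the 5 of untreated replicate 1.

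Stretches of DNA from 4 of the largest rises are shown, with such spaced pairs in capitals. A pair stood in the window of 4 of the 10 largest rises with a RefSeq promoter window and of none of the 8 largest falls with one. Both lists are small and were picked from these data, so these counts are no evidence that rises and falls differ. The windows run from 250 bases before to 50 bases after the gene start (RefSeq, GRCm38.p6). The letters searched were TTCNNNGAA, the spacing shared by most STAT proteins, and TTCNNNNGAA, the spacing preferred by STAT6. Both read the same on either strand. The first line is chr19:29410769-29410918 (plus strand), the 150 bases before the start of Pdcd1lg2. The second is chr10:68723496-68723745 (plus strand), the 250 bases before the start of Tmem26, with a pair near either end. The third is chr2:117342978-117343007 (minus strand), 30 bases in front of Rasgrp1, and the last is chr9:107296658-107296687 (plus strand), 30 bases at the start of Cish, where 2 pairs follow each other.
Pdcd1lg2: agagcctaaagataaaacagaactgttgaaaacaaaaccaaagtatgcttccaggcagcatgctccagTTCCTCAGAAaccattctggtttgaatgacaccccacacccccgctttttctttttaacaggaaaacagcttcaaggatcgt
Tmem26: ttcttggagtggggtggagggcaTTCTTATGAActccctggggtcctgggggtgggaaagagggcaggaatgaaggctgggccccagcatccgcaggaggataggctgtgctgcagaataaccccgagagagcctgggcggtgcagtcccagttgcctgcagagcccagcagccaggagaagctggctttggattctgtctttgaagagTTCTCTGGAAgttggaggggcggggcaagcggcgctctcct
Rasgrp1: gggggcaggaTTCGAAGAAgaactgagggc
Cish: tTTCCTGGAAagTTCTTGGAAatctgtcaa

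The pairs were also found in front of genes that fell or were not called. A window was found for 9389 of the tested genes. TTCNNNNGAA stood in a window of 6.82% of all these genes, of 9.42% of the 531 called at least 2-fold higher, of 6.29% of the 525 called at least 2-fold lower and of 6.76% of those not called. For TTCNNNGAA the shares were 8.52%, 9.79%, 9.71% and 8.56%. Among the 54 genes with a window called at least 8-fold higher, TTCNNNNGAA stood in 9.26% and TTCNNNGAA in 11.1%. The share of all genes with either spacing was not counted, so the counts for the largest rises and falls have no such share beside them. A match is a description of the letters and does not show binding.

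The other large rises held the feedback inhibitors. Socs1, which blocks JAK activity, had 0, 2 and 1 normalised counts in untreated replicates 1, 2 and 3 and 202, 130 and 257 after IL-4 (log2 difference 6.71 ± 0.36, adjusted p = 7.59e-09). Cish, a relative of Socs1 that is a textbook STAT target, rose from 1, 5 and 1 to 195, 207 and 248 (6.23 ± 0.34, adjusted p = 9.12e-09). Socs2, of the same family, rose from 1 in each untreated sample to 62, 47 and 62 (4.85 ± 0.22, adjusted p = 1.79e-09). Against the same floor Socs1 was at least 65.4-fold and Socs2 at least 19-fold higher, and stimulated samples were far above untreated ones in all 3 genes.

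Receptors and enzymes made up the remainder of the largest rises. Scn3a, a voltage-gated sodium channel subunit best known from neurons, rose from 1, 0 and 0 to 133, 198 and 230, at least 62.3-fold against the floor, though its reads could be shared with the overlapping gene Gm34833. Flt1, a receptor tyrosine kinase for vascular endothelial growth factor, had 7, 14 and 9 in untreated cells and 675, 689 and 602 after IL-4, a 65.5-fold rise with IL-4 samples all above 600. Tarm1, an activating receptor of myeloid cells, was listed at 0 in every untreated sample and at 73, 98 and 108 after IL-4, at least 31-fold above the floor. St8sia1, a sialyltransferase that makes gangliosides, Il1r1, the signalling receptor of interleukin-1, and Prps1, an enzyme of nucleotide synthesis, rose by 5.74 ± 0.38, 4.73 ± 0.48 and 4.63 ± 0.40 on the log2 scale, with St8sia1 at least 67.8-fold and Il1r1 at least 23-fold above the floor. All of these passed the test, with adjusted p between 1.79e-10 and 3.29e-06, though all but Flt1 had entered it through the IL-4 samples alone. Flt1 and St8sia1, and Socs2 above, also overlap another gene each.

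The largest falls were smaller than the largest rises, and by the rule began from a mean of at least 50 in untreated cells. Clec4d, a C-type lectin that senses mycobacterial glycolipids, had 654, 567 and 521 normalised counts in untreated replicates 1, 2 and 3 and 40, 26 and 21 after IL-4, with no overlap (log2 difference -4.32 ± 0.20, adjusted p = 2.15e-09). Cx3cr1, the fractalkine receptor, fell from 147, 221 and 279 to 22, 23 and 23 (-3.15 ± 0.30, adjusted p = 1.55e-06). The IL-4 samples were nearly alike in Cx3cr1, while the untreated samples spread widely. Ccr2, the receptor that brings monocytes into tissue, fell from 44, 97 and 97 to 7, 12 and 12 (-2.77 ± 0.42, adjusted p = 0.000156).

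Nfkbiz, an atypical IκB protein needed for a secondary set of inflammatory genes, fell from 199, 202 and 233 to 38, 25 and 27 (-2.80 ± 0.20, adjusted p = 9.45e-08). Vsig4, a complement receptor of resident macrophages, fell from 591, 362 and 333 to 77, 58 and 58 (-2.68 ± 0.25, adjusted p = 1.36e-06). In both genes the lowest untreated sample was more than 4 times the highest IL-4 sample. Rab7b, a GTPase of late endosomes, Adgre4, an adhesion receptor of the F4/80 family, Zfyve28, a regulator of endocytosis, Adra1a, an adrenergic receptor, the orphan receptor Gpr141 and the heat shock factor gene Hsf3 also fell, with log2 differences from -2.98 to -2.72. Hsf3 overlaps Heph and 2 other genes, and Cx3cr1 and Adgre4 overlap 1 gene each, so their reads may be shared. All 24 genes taken by the rule kept their call and direction under every alternative tried. The rises among them, other than Flt1, had passed the minimum through the IL-4 samples alone.

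**Figure D2:**
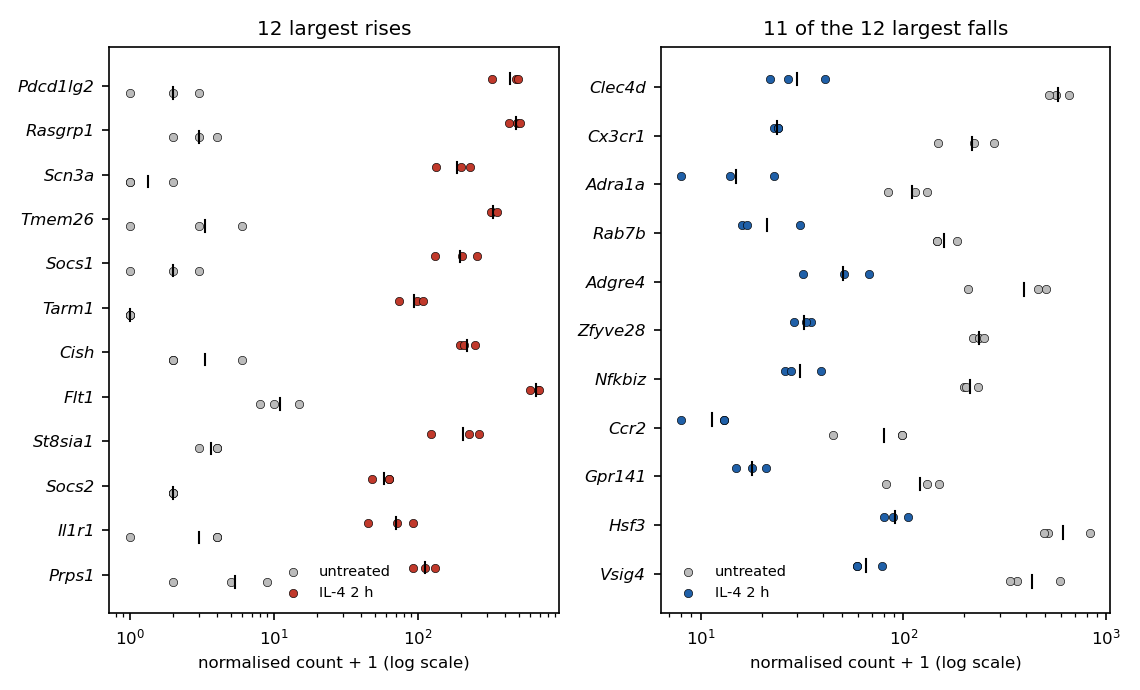
Normalised counts plus 1, on a log axis, of the 12 largest rises (left) and 11 of the 12 largest falls (right), with 1 point per sample and a bar at the mean of each group of 3. In Pdcd1lg2 the untreated samples hold at most 2 normalised counts and the IL-4 samples at least 324, and in Clec4d the untreated samples hold at least 521 and the IL-4 samples at most 40.

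The counts of list members that follow are to be set against the 16.3% of all genes called higher and the 14.8% called lower. Among the signalling chain itself, the receptor alpha chain, Jak2 and the feedback arm rose while Stat6, Jak3 and the common gamma chain did not pass the test. Il4ra, which binds IL-4, had 427, 397 and 471 normalised counts in untreated replicates 1, 2 and 3 and 1490, 1333 and 1350 after IL-4, a 3.22-fold rise (adjusted p = 2.75e-06). Il13ra1, the partner chain in the receptor that also takes interleukin-13, fell from 59, 47 and 44 to 19, 14 and 14 (3.19-fold, adjusted p = 0.000585). The chains of the receptor thus moved in opposite directions. Il2rg, the common gamma chain, had 28, 35 and 32 against 41, 26 and 17 and was not called (adjusted p = 0.621). Stat6 had 209, 245 and 225 against 207, 195 and 170 (adjusted p = 0.138), and Jak3 98, 99 and 84 against 97, 75 and 81 (adjusted p = 0.585). Neither passed the test.

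Jak2, a kinase of several cytokine receptors, rose from 138, 168 and 176 to 479, 551 and 574 (3.33-fold, adjusted p = 1.03e-06). Jak1, which is bound to IL-4Rα, had 1238, 1014 and 1105 against 971, 863 and 908 (adjusted p = 0.047), a call lost with replicates 2 and 3 averaged (adjusted p = 0.196) and without replicate 2 (0.174) or 3 (0.258). Ptpn2, a phosphatase that acts on JAKs and STATs, rose 1.85-fold, and Stat4 fell 4.87-fold. Of the 25 tested members of the list of IL-4 receptor and JAK-STAT genes, 6 were called higher and 6 lower, the second count being 3 with replicates 2 and 3 averaged and 2 without replicate 3, and the median difference was -0.09. In the SOCS family 4 of 7 tested members were higher and 1 lower, with a median of 0.90. Of the higher ones, Socs1, Cish and Socs2 had entered the test through the IL-4 samples alone, so this count is no evidence of its own. The lower one was Socs6 (1.69-fold, adjusted p = 0.0254), a call lost with replicates 2 and 3 averaged (adjusted p = 0.116) and without replicate 2 (0.104) or 3 (0.136).

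Most of the tested markers of alternative activation were higher after IL-4, though not all markers were on by 2 h. Of 25 tested members 16 were called higher and 3 lower (1 with replicates 2 and 3 averaged, or without replicate 2 or 3), and the median difference was 2.05, against 0.005 over all genes. Of the 44 markers listed in the data 19 were not tested, 12 of them at or under 3 normalised counts in all 6 samples. Among those tested, 4 held no more than 3 in any sample of 1 group. Pdcd1lg2 and Mgl2 entered the test through the IL-4 samples alone, so the counts and the median rest partly on such genes. Mrc1, the mannose receptor, was the most abundant of them, with 2386, 1541 and 1708 normalised counts in untreated replicates 1, 2 and 3 and 11547, 11634 and 13780 after IL-4 (6.56-fold, adjusted p = 3.7e-09). Its samples did not overlap. Mgl2, a galactose-binding lectin, rose from 7, 1 and 1 to 53, 21 and 27 (adjusted p = 0.000222).

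Arg1, which splits arginine, had 6, 7 and 15 in untreated cells and 24, 45 and 54 after IL-4 (4.39-fold, adjusted p = 0.00172), a call lost without replicate 2 (adjusted p = 0.0767). Slc7a2, which carries arginine into the cell, rose 23.7-fold, from 12, 14 and 11 to 245, 289 and 342 (adjusted p = 5.67e-11). Gatm, the first enzyme of creatine synthesis from arginine, rose 7.41-fold. Of the 27 tested genes of arginine, polyamine and amino acid transport, 6 were higher and 3 lower, near the shares of all genes. The lower ones were the transporters Slc7a7 (2.61-fold) and Slc7a8 (1.79-fold; adjusted p = 0.0681 without replicate 3) and the spermine oxidase Smox (1.47-fold). The lower count was 8 without replicate 1 and 5 with the replicate block.

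Several further markers were low or not found at 2 h. Retnla, which encodes the secreted protein RELMα, was listed at 0 in every untreated sample and at 9, 9 and 13 after 2 h of IL-4, under the minimum for testing, and reached 74, 140 and 129 at 4 h. Ccl24, an eosinophil chemokine, had 0, 2 and 0 in untreated cells and 7, 15 and 20 at 2 h, close to its values at the other IL-4 times. Chil3, which encodes the chitinase-like protein Ym1, was listed at 0 in all IL-4 and untreated samples, and Ccl17 and Ccl22 at no more than 1. The 3 marker genes called lower were Msr1 and Cd36, both scavenger receptors, and F13a1, a coagulation factor subunit, which was named after its values were seen and was not called with replicates 2 and 3 averaged (adjusted p = 0.165).

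Among regulators of transcription, 20 of 70 tested members of the list were higher and 17 lower, and the median difference of the list was 0.00. Irf4, a factor needed for alternative activation in several settings, rose from 21, 16 and 10 normalised counts to 230, 205 and 260 in replicates 1, 2 and 3 (14.8-fold, adjusted p = 6.39e-08). Batf3, an AP-1 family member that partners with interferon regulatory factors, rose from 5, 5 and 4 to 100, 53 and 66 (15.6-fold, adjusted p = 7.2e-07). Egr2, a zinc finger factor known as an early IL-4 target, rose from 2, 1 and 5 to 41, 18 and 22 (10.1-fold, adjusted p = 3.45e-05). Groups did not overlap in any of the 3.

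Myc rose 5.14-fold, from 6, 14 and 9 to 67, 35 and 47 (adjusted p = 1.79e-05). Klf4 rose from 2, 1 and 5 to 13, 14 and 13 (adjusted p = 0.000716). Among members with at least 20 in untreated cells, the 3 largest falls were those of Nfkbiz, Fos (6.08-fold; adjusted p = 0.123 without replicate 3) and Mef2c, a MADS box factor, which went from 1924, 1880 and 1980 to 563, 534 and 611 (3.39-fold, adjusted p = 1.13e-08). Mef2c was the tightest of these, with IL-4 and untreated samples each within a narrow range. The lower members numbered 9 with replicates 2 and 3 averaged, 9 without replicate 2 and 8 without replicate 3. Among 17 tested immediate early genes 5 were higher and 6 lower (1 without replicate 3). Egr2, Myc and Klf4 led the rises, and Fos, Dusp1 and Btg2 the falls, which were called with replicate 3 but not without it (adjusted p = 0.123, 0.0955 and 0.0745).

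Of the 31 tested tyrosine kinases, 13 were higher and 7 lower, or 9 and 5 with replicates 2 and 3 averaged. After Flt1, the largest rise was that of Fyn, a kinase of the Src family, from 428, 570 and 571 to 3805, 3140 and 3424 (6.61-fold, adjusted p = 1.18e-09). Its relatives did not move as one. Lyn fell 2.82-fold, while Src, named after its values were seen, rose 3.65-fold (adjusted p = 0.0239, and 0.173 with replicates 2 and 3 averaged). Syk, which relays signals of Fc and lectin receptors, fell from 1199, 1117 and 1147 to 627, 525 and 456 (2.15-fold, adjusted p = 0.000143). Tnk2, which overlaps its antisense gene Tnk2os, rose 6.35-fold.

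Genes that feed back on Ras and MAP kinase signalling were split, 5 higher and 8 lower of 20 tested, with 2 lower where replicates 2 and 3 were averaged or replicate 2 was left out, and 1 lower without replicate 3. The higher count was 3 without replicate 2. The largest rise of the list is that of Rasgrp1, which activates Ras. Dusp4, a nuclear phosphatase of MAP kinases, rose from 9, 7 and 10 to 81, 76 and 93 (9.62-fold, adjusted p = 2.47e-09), while Dusp1 and Dusp6, related phosphatases, had 4.69-fold and 2.88-fold lower means. The call of Dusp6 was lost with replicates 2 and 3 averaged (adjusted p = 0.0607) and without replicate 2 (0.0829) or 3 (0.0883), and that of Dusp1 without replicate 3 (0.0955).

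Ligands of T cell receptors that inhibit rose together with some that stimulate. Beside Pdcd1lg2, Cd274, which encodes PD-L1, rose from 51, 28 and 44 to 475, 369 and 375 (9.91-fold, adjusted p = 7.13e-08). Cd40, a receptor through which T cells activate macrophages, rose from 44, 27 and 43 to 369, 316 and 314 (8.76-fold, adjusted p = 3.03e-07), and Cd86, a ligand of CD28, rose 2.65-fold. Cd80, which binds the same receptors as Cd86, moved the other way, from 50, 40 and 50 to 21, 23 and 20 (2.19-fold lower; adjusted p = 0.065 without replicate 3). Of the 16 tested members of the list of MHC class II and costimulation genes 4 were higher, those just named, and 5 lower. The median difference was -0.03. The higher count was 7 without replicate 1, and the lower count 3 without replicate 2 and 2 without replicate 3.

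Receptors for cytokines moved both ways, 11 of 41 tested members higher and 11 lower, or 9 and 10 with replicates 2 and 3 averaged. Il1r1 and Il1rl2 (6.06-fold), both receptors of interleukin-1 family cytokines, led the rises with Cd40. Il7r (4.71-fold) and Il17ra (4.04-fold) led the falls with Il13ra1.

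Receptors for chemokines and other attractants mostly fell. Of 17 tested, 9 were lower and 1 higher, and those counts were 9 and 0 with replicates 2 and 3 averaged. The median difference was -0.76. Besides Cx3cr1 and Ccr2, the largest fall was that of Cxcr4, the receptor that holds cells in the marrow, from 90, 72 and 53 to 23, 12 and 12 (4.57-fold, adjusted p = 0.000118). The single rise was P2ry6, a nucleotide receptor, of 1.46-fold, which was not called with replicates 2 and 3 averaged (adjusted p = 0.137) or without replicate 2 (0.131) or 3 (0.155). Of 7 tested chemokines 4 were lower, Ccl3, Ccl4, Ccl6 and Cxcl16, and none had a difference above 0. Ccl4 and Ccl6 were named after their values were seen, and Ccl4 was not called with replicates 2 and 3 averaged (adjusted p = 0.0513).

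The list of inflammatory cytokines and NF-κB targets had 11 of 21 tested members lower and 2, Cd40 and Cd86, higher, with a median difference of -0.68. Tlr2, a receptor of bacterial lipopeptides, fell from 60, 58 and 57 to 10, 15 and 7 (5.47-fold, adjusted p = 3.44e-05). Ccl3 fell from 30, 13 and 19 to 5, 6 and 3 (4.43-fold, adjusted p = 0.000546). Tnf and Il1b were too low to be tested, at no more than 9 and 24 in untreated cells and 3 in IL-4 samples. The lower count was 8 with replicates 2 and 3 averaged and 7 without replicate 2.

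C-type lectin receptors divided by gene: 4 of 19 tested were higher and 8 lower, all 8 by at least 2-fold. Mrc1, Mgl2 and Clec7a, which encodes the β-glucan receptor Dectin-1 (127, 153 and 144 in untreated cells, 298, 447 and 535 after IL-4), were among the rises. Clec4d was joined among the falls by Clec4n, which encodes Dectin-2 (from 49, 29 and 23 to 5, 4 and 1, adjusted p = 0.000134), and by Clec12a, an inhibitory receptor (from 255, 276 and 296 to 39, 55 and 46, adjusted p = 1.65e-06). No member just named had overlapping groups.

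Of 36 tested interferon-responsive genes 5 were higher and 10 lower, with a median of -0.13 and 1 member past 2-fold either way. These counts were 4 and 2 with replicates 2 and 3 averaged, 3 and 4 without replicate 2, 5 and 1 without replicate 3 and 9 and 11 with the replicate block. Irf7 rose 4.06-fold, from 21, 20 and 25 to 87, 80 and 101 (adjusted p = 7.95e-06). Rsad2 (adjusted p = 0.0116) and Mx2 (0.00626) were lower by 3.67-fold and 1.70-fold, and neither was called with replicates 2 and 3 averaged (0.0551 and 0.0676) or without replicate 3 (0.184 and 0.227).

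Of the genes for phagocytosis and the lysosome, 18 of 41 tested were lower and 3 higher, and 10 were lower with replicates 2 and 3 averaged and 11 without replicate 2 or 3. Msr1 fell from 551, 810 and 865 to 104, 128 and 147 (5.87-fold, adjusted p = 7.92e-06), and Stab1, a scavenger receptor of tissue macrophages, from 9175, 6265 and 6428 to 2141, 1176 and 1096 (4.96-fold, adjusted p = 1.33e-05). Gas6, the ligand of the receptors that bind dying cells, fell 2.82-fold. The 3 rises were Fcgr2b, the inhibitory Fc receptor, from 235, 160 and 158 to 1124, 1453 and 1433 (7.25-fold), and the integrin chains Itgb3 (7.62-fold) and Itgav (1.84-fold). Itgav lost its call with replicates 2 and 3 averaged (adjusted p = 0.118) and without replicate 2 (0.0713) or 3 (0.192). In the Ms4a family of membrane proteins, Ms4a4a rose 2.86-fold and Ms4a6d 1.64-fold, while 4 of 9 tested members fell. Ms4a6d was not called without replicate 2 (adjusted p = 0.0628). Ms4a4d, a fall, was not called without replicate 2 (0.0642) or 3 (0.225) or with both averaged (0.123).

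Genes of lipid metabolism did not move as a block. Of 35 tested genes of cholesterol and fatty acid synthesis and efflux 5 were higher and 5 lower, near the shares of all genes. The counts were 8 and 7 with the replicate block, 3 and 4 without replicate 2 and 4 and 2 without replicate 3. Abca1 and Abcg1, which both export cholesterol, moved apart. Abca1 fell from 2734, 1967 and 1984 to 822, 482 and 420 (3.88-fold, adjusted p = 0.000192). Abcg1 rose from 194, 177 and 172 to 494, 324 and 340 (2.13-fold, adjusted p = 0.00383). The call of Abcg1 was lost without replicate 2 (adjusted p = 0.0526) and with all 27 samples in the fit (0.136). Of 26 genes of fatty acid oxidation and lipid uptake 4 were higher and 7 lower, and these counts were 2 and 4 with replicates 2 and 3 averaged, 3 and 4 without replicate 2 and 2 and 3 without replicate 3. Ppargc1b, a coactivator of oxidative metabolism, stood alone among them in size, going from 83, 62 and 52 to 1390, 948 and 894 (16.4-fold, adjusted p = 1.1e-07).

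Most of the ribosome biogenesis genes tested rose. Of 42 tested members 33 were called higher and none lower, 16 of them by at least 2-fold, and at an unadjusted p under 0.05 also none was lower. The median difference was 0.90 ± 0.23 (SD over the 3 replicate numbers). The higher count was 21 with replicates 2 and 3 averaged, 20 without replicate 2 and 17 without replicate 3. The leading members were low in these chromatin samples: Ppan, a factor for the large subunit, had 9, 7 and 8 in untreated cells and 41, 18 and 29 after IL-4 (3.67-fold, adjusted p = 0.000654), and Nolc1, a nucleolar chaperone, 15, 7 and 9 against 49, 28 and 23 (3.23-fold, adjusted p = 0.0024; 0.0775 without replicate 2). Gnl3, a nucleolar GTPase whose reads may be shared with snoRNA genes inside it, rose 3.13-fold.

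Cell cycle genes depended on how the replicates were handled. Of 45 tested, 4 were higher and 1, Ccnd3, lower, with a median difference of -0.61. With the replicate number as a block 5 were higher and 22 lower, and without replicate 1 the lower count was 29. The summed level of the list ranged from 2412 to 6755 in the untreated samples and from 2451 to 5062 in the IL-4 samples. Cdkn1a, which arrests the cycle, rose from 70, 91 and 137 to 265, 300 and 365 (3.12-fold, adjusted p = 4.75e-05).

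**Figure D3:**
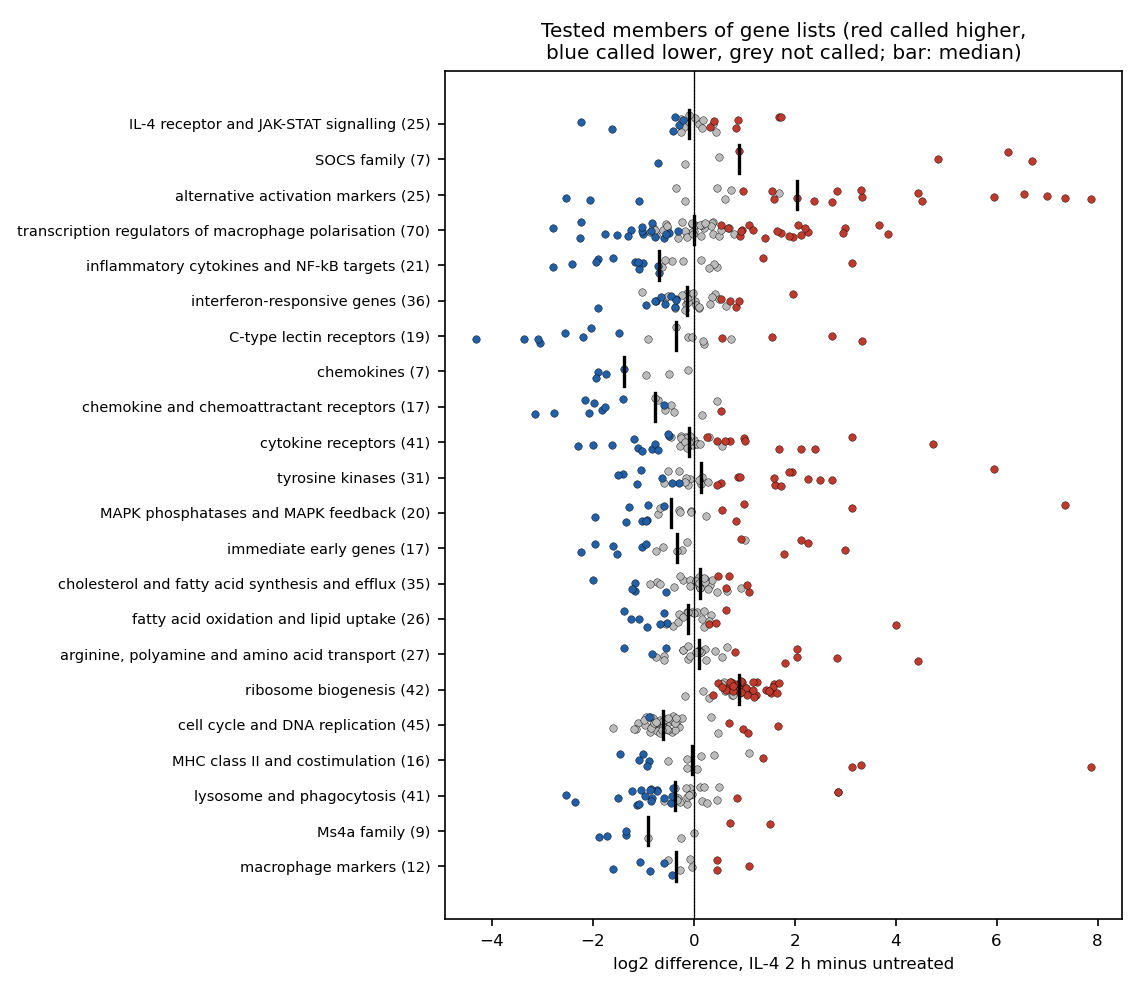
Log2 difference, IL-4 2 h minus untreated, on the x axis for every tested member of each gene list on the y axis, with the number tested in brackets, a bar at the median of the list and the median of all genes as a dotted line. Ribosome biogenesis lies to the right, with 33 of 42 members called higher, and chemokine receptors to the left, with 9 of 17 called lower.

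Some abundant genes, those with a mean of at least 1000 over the 6 samples, also moved several-fold, though less on the log2 scale than the largest rises and falls above. St7, a gene of little known function that overlaps 3 non-coding genes, had 194, 196 and 200 normalised counts in untreated replicates 1, 2 and 3 and 2685, 3387 and 3344 after IL-4, a log2 difference of 3.98 ± 0.12 (adjusted p = 4.22e-11). Tcf7l2, a transcription factor of the Wnt pathway, rose from 1095, 1001 and 905 to 9051, 8122 and 8305 (8.49-fold, adjusted p = 5.67e-11). Fmnl2, an actin regulator, Osbpl3, a lipid transfer protein, and Rps6kc1, a kinase-like protein, rose 9.15-fold, 6.96-fold and 6.81-fold. Together with Mrc1 these were the 6 largest rises of abundant genes on the log2 scale, Mrc1 (2.73) being next to Fyn (2.73), which by the ratio of means stood above it.

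The largest falls of abundant genes were those of Nrp1, a coreceptor for semaphorins, from 2391, 1636 and 1683 to 374, 258 and 276 (6.29-fold, adjusted p = 1.51e-07), and Arhgap18, a GTPase-activating protein, from 1945, 2054 and 2080 to 323, 388 and 382 (5.56-fold, adjusted p = 3.08e-10). Pid1, a regulator of insulin signalling, fell from 10542, 8672 and 8839 to 2203, 1913 and 2051 (4.55-fold, adjusted p = 8.75e-09). Stab1, Rnf150, a ubiquitin ligase (4.92-fold), and Fnip2, a partner of folliculin in nutrient sensing (4.56-fold), completed the falls.

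Of 1710 non-coding RNA genes tested, 236 (13.8%) were higher and 306 (17.9%) lower, against 16.7% and 14.3% of 9994 protein-coding genes. Among those that overlap no other gene, Gm30605 (chr8:80313073-80395185) rose the most, from 51, 62 and 42 to 487, 706 and 795 (12.8-fold, adjusted p = 8.09e-09). Neat1, the RNA that scaffolds paraspeckles, fell from 9445, 6855 and 7284 to 3218, 2742 and 2720 (2.72-fold, adjusted p = 1.4e-06), and Gm34087 (chr13:97602610-97622765) fell 4.06-fold. Gm32098 and E230029C05Rik rose 2.16-fold and 2.19-fold, and 4933406I18Rik and Gm46162 fell 3.13-fold and 2.71-fold. Gm46228 rose 2.58-fold, with an adjusted p of 0.0626 without replicate 2.

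The share of genes called, and the balance of rises and falls, differed with the length of a gene. Among 1196 genes spanning over 100000 and up to 300000 bases, 19.8% were higher and 29.3% lower, with a median difference of -0.15. Among 4251 genes spanning over 10000 and up to 30000 bases, 15.6% were higher and 11.6% lower, with a median of 0.03. Called at least 2-fold were 9.11% higher and 10.95% lower of the longer genes, and 4.85% and 4.92% of the shorter. The longer genes also held more normalised counts (medians of 372 and 54.3), and the part of this in the difference was not tested. Span medians were 26920 bases for genes called at least 2-fold higher, 29625 for those called at least 2-fold lower and 23206 for all.

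The 2 h samples were next set against the time points on either side. Between 1 h and 2 h 1317 genes differed (11.1%), 583 (4.91%) higher and 734 (6.18%) lower at 2 h. These counts were 82 and 181 with replicates 2 and 3 averaged, 61 and 152 without replicate 2, 78 and 182 without replicate 3 and 1055 and 1307 with the replicate block. Equal totals gave 896 and 581, which turns the balance, median-of-ratios scaling 545 and 713 and the fit to all 27 samples 301 and 571. Between 2 h and 4 h 803 genes differed (6.76%), 341 (2.87%) higher and 462 (3.89%) lower at 4 h. The counts were 14 and 36 with replicates 2 and 3 averaged, 8 and 24 without replicate 2, 12 and 36 without replicate 3, 862 and 1020 with the replicate block and 435 and 380 with equal totals. Both comparisons share the 2 h samples with each other and with that against untreated.

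Most of the largest rises had begun before 2 h. Over 0.5, 1, 2 and 4 h Pdcd1lg2 had means of 59.3, 183, 433 and 582, and its 2 h level differed from that at 1 h (log2 difference 1.22, adjusted p = 0.0229) but was not called against 4 h (0.44, adjusted p = 0.51). Scn3a was later, with means of 6.33, 31.7, 187 and 714, and differed from both 1 h (2.51, adjusted p = 0.000162) and 4 h (1.94, adjusted p = 0.00207). Socs1 had 133, 177, 196 and 139, and its 2 h level was called against neither.

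For some genes 2 h was a turning point. Called in opposite directions against both neighbouring times were 50 genes highest at 2 h and 83 genes lowest at 2 h, and with replicates 2 and 3 averaged 3 and 3. Both tests use the same 2 h samples, so a deviation shared by those samples would enter both calls. Socs2 stood at 35, 32 and 32 after 1 h, rose to 62, 47 and 62 by 2 h and came down to 29, 23 and 15 by 4 h. Tcf7l2 stood at 5289, 5275 and 5182 after 1 h, rose to 9051, 8122 and 8305 and came down to 4989, 4610 and 4760. Both peaked at 2 h with no overlap between times. Whether either is among the 3 genes left by the averaging is not given here.

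Fnip2 was lowest at 2 h, going from 3078, 2133 and 1718 after 1 h to 992, 741 and 686 and back to 2293, 1834 and 2050 by 4 h. The fall and return were called (log2 differences -1.49, adjusted p = 0.000169, and 1.36, adjusted p = 0.000676), and Gm36442 and Gm17359, which overlap Fnip2 and may share its reads, followed it. Ms4a14, of the Ms4a family, had 679, 709 and 675, then 346, 259 and 264, then 706, 628 and 524.

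Pparg and Cd36 had risen and come down again by 2 h. Pparg, the lipid sensing nuclear receptor, had 986, 742 and 689 in untreated cells, 1984, 1698 and 1423 after 0.5 h, then 1977, 1645 and 1563, and by 2 h 660, 487 and 499. Its 2 h level was under that of 1 h (-1.66, adjusted p = 0.000123) and was not called against untreated (-0.55, adjusted p = 0.0514). It lay below untreated in each of the 3 replicate pairs, and with the replicate block it was called (adjusted p = 1.68e-05). Cd36, a lipid scavenger receptor and a known target of PPARγ, had 334, 274 and 356 in untreated cells, 1827, 3620 and 4604 after 0.5 h, then 1114, 1827 and 2027, and by 2 h 161, 124 and 169. At 2 h all its IL-4 samples lay under all untreated ones (2.12-fold, adjusted p = 0.023), a call lost with replicates 2 and 3 averaged (0.136) and without replicate 2 (0.164) or 3 (0.122), while the step down from 1 h was -3.41 (adjusted p = 2.05e-05).

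**Figure D4:**
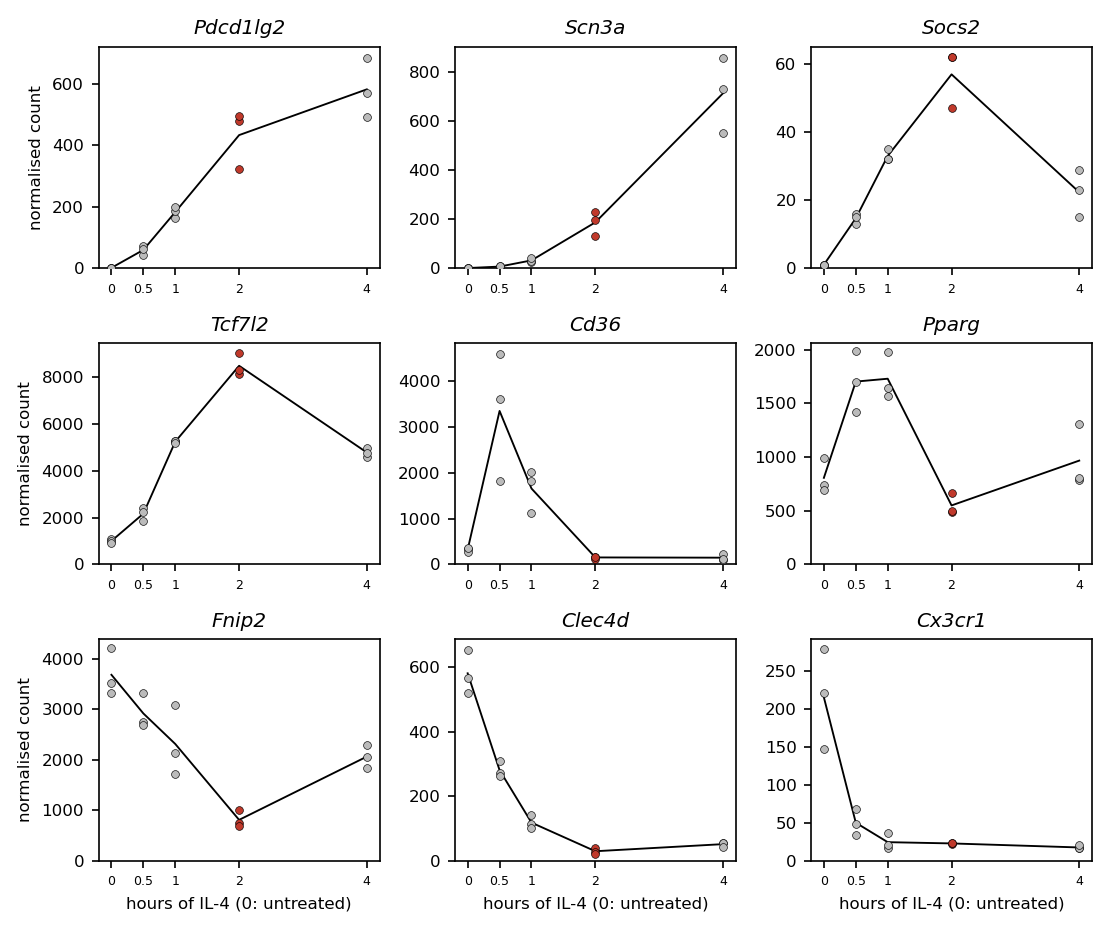
Normalised counts of 9 genes on the y axis over hours of IL-4 on the x axis, with untreated samples at 0, 1 point per sample, 2 h in red and a line through the means. Socs2 and Tcf7l2 are highest at 2 h, Fnip2 and Pparg are lowest there, and Cd36 has fallen from a mean of 3350 at 0.5 h to 151 at 2 h.

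The response at 2 h differed widely from that to LPS at the same time. Between the stimuli 8442 genes differed (71.1%), 5592 (47.1%) higher after IL-4 and 2850 (24%) lower. The median gene was 0.47 higher after IL-4 on the log2 scale, 0.20 higher with median-of-ratios scaling and 1.08 higher with equal totals, and the counts moved with it, to 4640 higher and 3560 lower and to 7855 higher and 1756 lower. The tested genes had passed a minimum in IL-4 or untreated samples, so genes found after LPS alone, such as Tnf and Il1b, are not among them. Without that filter 6215 genes were higher after IL-4 and 4162 lower, and with replicates 2 and 3 averaged 5029 and 2523. Differences are given against the median gene as deposited, while the adjusted p are those of the difference before this centring.

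Several of the large IL-4 rises were far higher after IL-4 than after LPS. Pdcd1lg2 had 11, 3 and 4 normalised counts after LPS (log2 difference 5.63 against the median gene), Scn3a 2, 0 and 0 (6.52), Irf4 6, 4 and 5 (4.82) and Mrc1 393, 285 and 401 (4.64). In these genes no LPS sample reached the lowest IL-4 sample. Other genes that rose after IL-4 were higher still after LPS: Cd40 had 5481, 5220 and 4948 (-4.44 against the median gene), Jak2 5352, 6162 and 6004 (-3.92) and Il4ra 2918, 2857 and 3643 (-1.64). Of the largest rises, Cish had 296, 523 and 482 after LPS (-1.43, adjusted p = 0.0113) and Tarm1 140, 157 and 179 (-1.24, adjusted p = 0.00368). Socs1 had 155, 155 and 159 after LPS and 202, 130 and 257 after IL-4, which overlap, and the difference was not called (adjusted p = 0.571).

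The falls divided in the same manner. Nfkbiz had 3277, 4787 and 4333 after LPS and 38, 25 and 27 after IL-4 (-7.53 against the median gene), and Clec4d 550, 400 and 430 against 40, 26 and 21. Arhgap18 was lower still after LPS, at 32, 22 and 30. All 36 interferon-responsive genes tested were called lower after IL-4 than after LPS, also with either other scaling, against 24% of all genes. Of 25 markers of alternative activation 16 (64%) were called higher and 4 lower. With equal totals 17 (68%) were higher and 3 lower, where 66.1% of all genes were higher, so the share of the markers was then close to that of all genes.

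**Figure D5:**
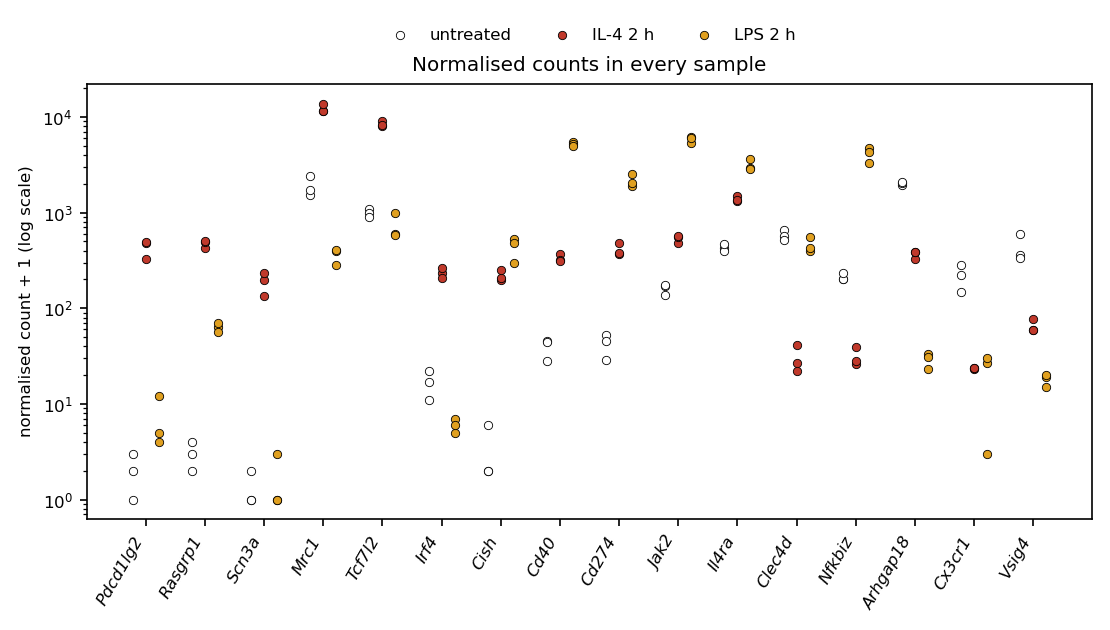
Normalised counts plus 1, on a log axis, of 16 genes in the 3 untreated (white), IL-4 2 h (red) and LPS 2 h (yellow) samples. Scn3a and Irf4 are high after IL-4 and at no more than 6 after LPS, and Nfkbiz is low after IL-4 and above 3000 after LPS.

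The markers in the data are those of macrophages. All 12 macrophage markers were tested, with summed levels of 10633 to 11656 in untreated and 11467 to 12171 in IL-4 samples, and 3 were called higher and 5 lower, or 1 and 2 with replicates 2 and 3 averaged. Among these Adgre1, which encodes F4/80, went from 4508, 4175 and 4051 to 5906, 5752 and 5793, and Lyz2, lysozyme, from 917, 842 and 1054 to 414, 312 and 221. No marker of T cells, B cells, neutrophils, mast cells, dendritic cells or osteoclasts passed the minimum for testing, and their lists summed to at most 41 in any sample. Of fibroblast markers, 2 of 7 were tested and not called, with sums of 37 to 89 in untreated and 32 to 209 in IL-4 samples, and of endothelial markers 1 of 6, not called, with sums of 44 to 50 and 35 to 46. Of erythroid markers Alas2, the first enzyme of haem synthesis, alone was tested, at 73, 91 and 94 in untreated and 179, 298 and 323 in IL-4 samples. It was called higher (log2 difference 1.58), also with replicates 2 and 3 averaged, while the 3 globin genes stood at 0. In samples of this kind fewer cells of a type and less RNA per cell cannot be told apart.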

How the data were processed

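Chromatin-associated RNA of bone marrow-derived macrophages was made by the authors into Smart-seq2 libraries with random primers and sequenced single-end. Per the labels and the study's methods, reads were aligned to mm10 with TopHat2 (2.1.1), reads with several hits or in blacklisted regions were removed with bedtools (2.29.2), and the rest were assigned to genes of the RefSeq GRCm38.p6 annotation. The authors scaled the counts on invariant genes and rounded them, so the deposited values are a normalised score and not raw counts. The submitters' processing notes also name DESeq2 and R (3.6.2). Whether counting used strand is not given in the sources used here. Gene positions follow the deposited table (GRCm38) and count bases from 1.

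The tested genes reached 10 normalised counts in 3 or more of the 6 samples, and entered limma 3.58.1 (R 4.3.3) as log2(value + 1) (mean-variance trend, Benjamini-Hochberg adjustment, threshold 0.05). The untreated and 4 IL-4 groups (15 samples) were fitted with 1 mean per group, and the comparison with LPS used all 27 samples. The study's impulse model of the time course was not run. The fit was tested on simulated counts drawn independently for each sample, so that test does not cover the closeness of replicates 2 and 3. Alternatives were a pseudocount of 8, no filter, a mean of at least 50, median-of-ratios scaling, equal totals, fewer or more groups in the fit, leaving out each replicate number, averaging replicates 2 and 3, a replicate block, array weights and no trend.

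The replicate numbers of the labels were taken to pair the samples in the replicate block and in the SD of a list median. The main fit and its p-values did not use them. Deviations from the group means correlated at 0.79, 0.56 and 0.64 between same-numbered samples over 4614 genes. Replicate 2 of one group also correlated with replicate 3 of the other, at 0.57 and 0.61. These values set replicate 1 apart and do not show which of replicates 2 and 3 belong together.

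Named genes were the 12 largest rises and falls of protein-coding genes, 4 and 4 of non-coding genes without overlap, 6 and 6 of genes with a mean of at least 1000, up to 3 and 3 per gene list with at least 20 in the higher group, 23 fixed genes, and 6 genes turning at 2 h. All but those of the lists and the 23 fixed genes needed a mean of at least 50 in the higher group. The genes, lists and tests were chosen with earlier results of these data known, and the lists were written from general knowledge. Where no sample of a group passed 3 normalised counts, the change is a bound against 3. Promoter windows are RefSeq's. Some genes taken by these rules are not reported here.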

Additional observations from a re-analysis of the deposited data

Results flagged for a closer look

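Named genes whose 2 h level differed in opposite directions from both neighbouring IL-4 times (limma, adjusted p under 0.05 in both tests) are listed here. Both tests use the same 2 h samples and are not independent of each other. With replicates 2 and 3 averaged 3 genes in all were highest and 3 lowest at 2 h by this measure, in place of 50 and 83. Most of the genes listed below therefore did not pass both tests with that averaging.

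Genes highest at 2 h were these. Socs2 was 0.76 higher at 2 h than at 1 h on the log2 scale and then changed by -1.35 to 4 h (adjusted p = 0.0411 and 0.00222). Tcf7l2 was 0.69 higher at 2 h than at 1 h on the log2 scale and then changed by -0.83 to 4 h (adjusted p = 0.000336 and 0.00018). Rps6kc1 was 0.49 higher at 2 h than at 1 h on the log2 scale and then changed by -0.52 to 4 h (adjusted p = 0.0233 and 0.0272). Gm39888 was 1.37 higher at 2 h than at 1 h on the log2 scale and then changed by -1.50 to 4 h (adjusted p = 0.0284 and 0.0277). Gm8149 was 1.04 higher at 2 h than at 1 h on the log2 scale and then changed by -0.84 to 4 h (adjusted p = 9.21e-05 and 0.000851).

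Genes lowest at 2 h were these, all on the log2 scale. Clec4d changed by -2.02 from 1 h to 2 h and by 0.83 from 2 h to 4 h (adjusted p = 2.7e-05 and 0.0272). Gpr141 changed by -0.75 from 1 h to 2 h and by 1.44 from 2 h to 4 h (adjusted p = 0.0377 and 0.00113). Gm34087 changed by -1.38 from 1 h to 2 h and by 1.24 from 2 h to 4 h (adjusted p = 0.00203 and 0.00707). Neat1 changed by -0.67 from 1 h to 2 h and by 0.81 from 2 h to 4 h (adjusted p = 0.00458 and 0.00212). Gm46162 changed by -0.48 from 1 h to 2 h and by 0.52 from 2 h to 4 h (adjusted p = 0.0369 and 0.034). Arhgap18 changed by -1.27 from 1 h to 2 h and by 0.35 from 2 h to 4 h (adjusted p = 3.11e-06 and 0.0344). Rnf150 changed by -0.78 from 1 h to 2 h and by 0.47 from 2 h to 4 h (adjusted p = 0.00123 and 0.0409).

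Fnip2 changed by -1.49 from 1 h to 2 h and by 1.36 from 2 h to 4 h (adjusted p = 0.000169 and 0.000676). Pid1 changed by -1.61 from 1 h to 2 h and by 0.53 from 2 h to 4 h (adjusted p = 3.11e-06 and 0.0176). Ccl3 changed by -1.43 from 1 h to 2 h and by 1.23 from 2 h to 4 h (adjusted p = 0.0128 and 0.0435). Soat1 changed by -0.78 from 1 h to 2 h and by 0.72 from 2 h to 4 h (adjusted p = 0.000169 and 0.000598). Pparg changed by -1.66 from 1 h to 2 h and by 0.79 from 2 h to 4 h (adjusted p = 0.000123 and 0.0313). Gm36442 changed by -1.69 from 1 h to 2 h and by 1.55 from 2 h to 4 h (adjusted p = 0.00135 and 0.00443). Ms4a14 changed by -1.26 from 1 h to 2 h and by 1.10 from 2 h to 4 h (adjusted p = 2.79e-05 and 0.000191). Gm17359 changed by -1.43 from 1 h to 2 h and by 1.01 from 2 h to 4 h (adjusted p = 0.000602 and 0.0117).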

How the results depend on the processing

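The count of genes called at 2 h against untreated (3687) depended on taking replicates 2 and 3 as separate samples. It was 2153 with these averaged, and between 1936 and 4636 with 1 replicate number left out, the lower values without replicate 3 (1936) or 2 (1970). All other alternatives kept it within 1.5 times. Against IL-4 1 h (1317) it was 872 with all 27 samples in the fit, 263 with replicates 2 and 3 averaged, 2362 with the replicate block, 2152 with array weights and between 213 and 2269 with 1 replicate number left out. Between 4 h and 2 h (803) it was 534 without a filter, 455 with the 2 groups alone, 419 with all 27 samples, 50 with replicates 2 and 3 averaged, 1882 with the replicate block, 1874 with array weights and between 32 and 1799 with 1 replicate number left out, 32 without replicate 2 and 48 without replicate 3. Against LPS (8442) it was 5201 with a mean of at least 50, which left 6770 genes to test. The cause of the other changes was not tested.

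The replicate block gave 4935 calls against untreated and ended the call of none of the 136 named genes called, while Pparg, not called without it, was called with it. Of these, 103 kept their call and direction under every alternative, 22 lost the call without replicate 2, 24 without replicate 3, 1 without replicate 1 and 16 with replicates 2 and 3 averaged. The direction of 1 uncalled gene, Il2rg, turned: its log2 difference lay between -0.645 and 0.0597 with 1 replicate number left out, the latter without replicate 3. The depth of each library is not given, so counting precision could not be set beside the spread between replicates.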
